A study of Homo sapiens with 23 samples.

Results

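The complement components C3, C5, C8A, C8B, C8G, CFB, CFI, C4BPA and CD55 were followed across Caco-2 and HepG2 cells of a gut and liver chip. These 9 genes were taken by name from the 60564 gene identifiers of the series, and every one of them was found once in each of the 23 libraries. The chip, termed iGLC platform, holds Caco-2, an established line of human colorectal adenocarcinoma used as an intestinal epithelium, and HepG2, an established line of human hepatocellular carcinoma used as a liver model. Polyadenylated RNA of each line was sequenced from mono-culture and from co-culture, in which medium circulates between the chambers of both lines, with or without free fatty acids (FFAs). The FFAs were palmitic and oleic acid at a ratio of 1:2, 1 mM in total, given for 1 day. According to the labels all groups were kept in 0.5% fetal bovine serum during that day, whereas the methods of the study name serum-free medium with albumin. There were 8 groups, namely Caco-2 and HepG2, each mono-cultured control, mono-cultured FFAs, co-cultured control and co-cultured FFAs. Each had 3 libraries except the co-cultured Caco-2 controls, which had 2. Each cell type is thus 1 tumour-derived line, and no hepatocyte or enterocyte from tissue was sampled. Values are TPM, the share of a transcript among all transcripts of a library after correction for transcript length, given below in the order of the library numbers.

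Complement is a set of plasma and membrane proteins, made largely by the liver, that marks and lyses microbes. Its pathways meet at the cleavage of C3, which factor B (CFB) amplifies by forming a convertase with C3b. Cleavage of C5 then starts the membrane attack complex, to which C8 contributes as a complex of the C8A, C8B and C8G chains. Host cells are spared by regulators such as factor I (CFI), a plasma protease that cleaves C3b and C4b, the C4b-binding protein (C4BPA is its alpha chain), and CD55, a lipid-anchored membrane protein that speeds the decay of the convertases.

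The 9 genes lie on 5 chromosomes in GENCODE release 44 on GRCh38. C3 (ENSG00000125730) is at chr19:6677704-6730562 on the minus strand, and C5 (ENSG00000106804) is at chr9:120932987-121075195 on the minus strand. C8A (ENSG00000157131) at chr1:56854768-56918223 and C8B (ENSG00000021852) at chr1:56929207-56974383 are neighbours on opposite strands, and C8G (ENSG00000176919) is at chr9:136945185-136946975. C4BPA (ENSG00000123838) at chr1:207104233-207144972 and CD55 (ENSG00000196352) at chr1:207321519-207386804 share the plus strand of chromosome 1. CFI (ENSG00000205403) is at chr4:109731008-109802150 on the minus strand. CFB (ENSG00000243649) is at chr6:31945650-31952086 on the plus strand and overlaps a readthrough gene of C2 and CFB (AL645922.1), which was listed at 0 to 3.03 TPM, so a small part of the CFB reads may be assigned to it.

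The bases upstream of the start site are shown for 3 members that mark the range of the results below, namely CFI with the widest gap between the lines, CD55 as the member lower in HepG2, and CFB as the member whose promoter held a searched motif. They are from RefSeq on GRCh38.p14 and run 5′ to 3′ over the 250 bases before the start, from chr6:31945845-31946094 for CFB (plus strand), chr4:109802000-109802249 for CFI (minus strand) and chr1:207321428-207321677 for CD55 (plus strand). The RefSeq starts lie inside the GENCODE spans given above, which hold all of the CFB stretch and part of the CFI and CD55 stretches. Positions below therefore count from the RefSeq starts only. Capitals mark a motif match.
CFB: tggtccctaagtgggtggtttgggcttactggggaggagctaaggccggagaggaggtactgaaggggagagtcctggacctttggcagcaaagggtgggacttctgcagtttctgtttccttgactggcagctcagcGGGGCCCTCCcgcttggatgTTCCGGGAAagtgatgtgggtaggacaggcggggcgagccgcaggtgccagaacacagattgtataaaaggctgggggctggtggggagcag
CFI: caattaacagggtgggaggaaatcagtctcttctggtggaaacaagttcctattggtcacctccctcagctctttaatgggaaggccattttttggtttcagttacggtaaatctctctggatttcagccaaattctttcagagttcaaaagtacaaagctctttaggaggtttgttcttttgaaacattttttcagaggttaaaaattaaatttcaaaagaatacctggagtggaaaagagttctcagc
CD55: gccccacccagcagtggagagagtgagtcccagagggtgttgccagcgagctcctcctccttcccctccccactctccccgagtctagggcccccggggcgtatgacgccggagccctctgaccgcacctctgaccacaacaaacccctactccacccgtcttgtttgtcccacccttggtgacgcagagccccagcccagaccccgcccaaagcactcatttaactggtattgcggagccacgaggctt
Of the 9 members 7 had an entry in the RefSeq promoter table, C5 with 2. Motifs were searched on both strands, from 250 bases before to 50 after the start. The CFB promoter held a match to the NF-kB consensus from -112 to -103 and a match to the STAT motif TTCNNNGAA from -92 to -84, the latter a palindrome that matches on both strands, and these matches do not overlap. None of the other 7 promoters of members held either. Over all 35116 promoters of the table, 11.3% held the NF-kB consensus and 7.66% the STAT motif. The C/EBP palindrome TTGCGCAA was in 0.151% of all promoters and in none of the members. GC content was 59.0% for CFB with 7 CpG, 65.0% for CD55 with 19 CpG and 39.3% for CFI with 2 CpG, against a median of 58.7% and 14 CpG over the table. These are matches of letters, and no binding was measured.

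The labels of the lines were checked on marker lists. The summed liver markers were at 60823 to 92114 TPM in HepG2 and 4721 to 7375 TPM in Caco-2, where albumin (ALB) itself reached 321 to 769 TPM. The liver markers HPX and TTR overlapped between the lines. HPX was at 14.2 to 28.1 TPM in Caco-2 and 6.74 to 34.7 TPM in HepG2, and TTR at 227 to 342 TPM and 232 to 649 TPM. The summed intestinal markers were at 1535 to 1932 TPM in Caco-2 and 260 to 412 TPM in HepG2. In HepG2, VIL1 was at 153 to 244 TPM and DPP4 at 70.0 to 160 TPM. CDX1, an intestinal transcription factor, was at most at 0.18 TPM in either line, and LGALS4, GPA33 and KRT20 were at most at 11.3 TPM in Caco-2. TPM keep no sequencing depth, so the number of reads behind each value is unknown. No 2 libraries were identical. In these bulk samples, fewer cells of a type and less RNA per cell cannot be told apart.

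HepG2 expressed 8 of the 9 complement components at a higher level than Caco-2, and CD55 at a lower level. In mono-cultured controls, the difference on the log2(TPM + 1) scale passed the threshold for all 9 members (limma, adjusted p under 0.05 over 16495 genes), with 8 higher and 1 lower in HepG2. Among all genes tested 62.4% passed, 3857 higher and 6429 lower in HepG2, so a call by itself does not set the members apart. The median difference of the members was 2.67 and that of all genes tested was -0.20. With median-of-ratios scaling the difference of all genes shifted by 0.18 towards HepG2 and the share of calls that were higher in HepG2 went from 37.5% to 47.6%, whereas the directions of all 9 members were kept. Every HepG2 library lay above every Caco-2 library for C3, C5, C8A, C8B, C8G, CFB and CFI, that is 7 of 9 members against 14.1% of all genes tested. C8A and C8B, counted here and among the 8 higher members, passed the filter of a group mean of 1 TPM through HepG2 alone. Their direction was thus largely set by the filter and is given as a description. Every HepG2 library lay below every Caco-2 library for CD55, as for 28.6% of all genes tested.

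**Figure D1:**
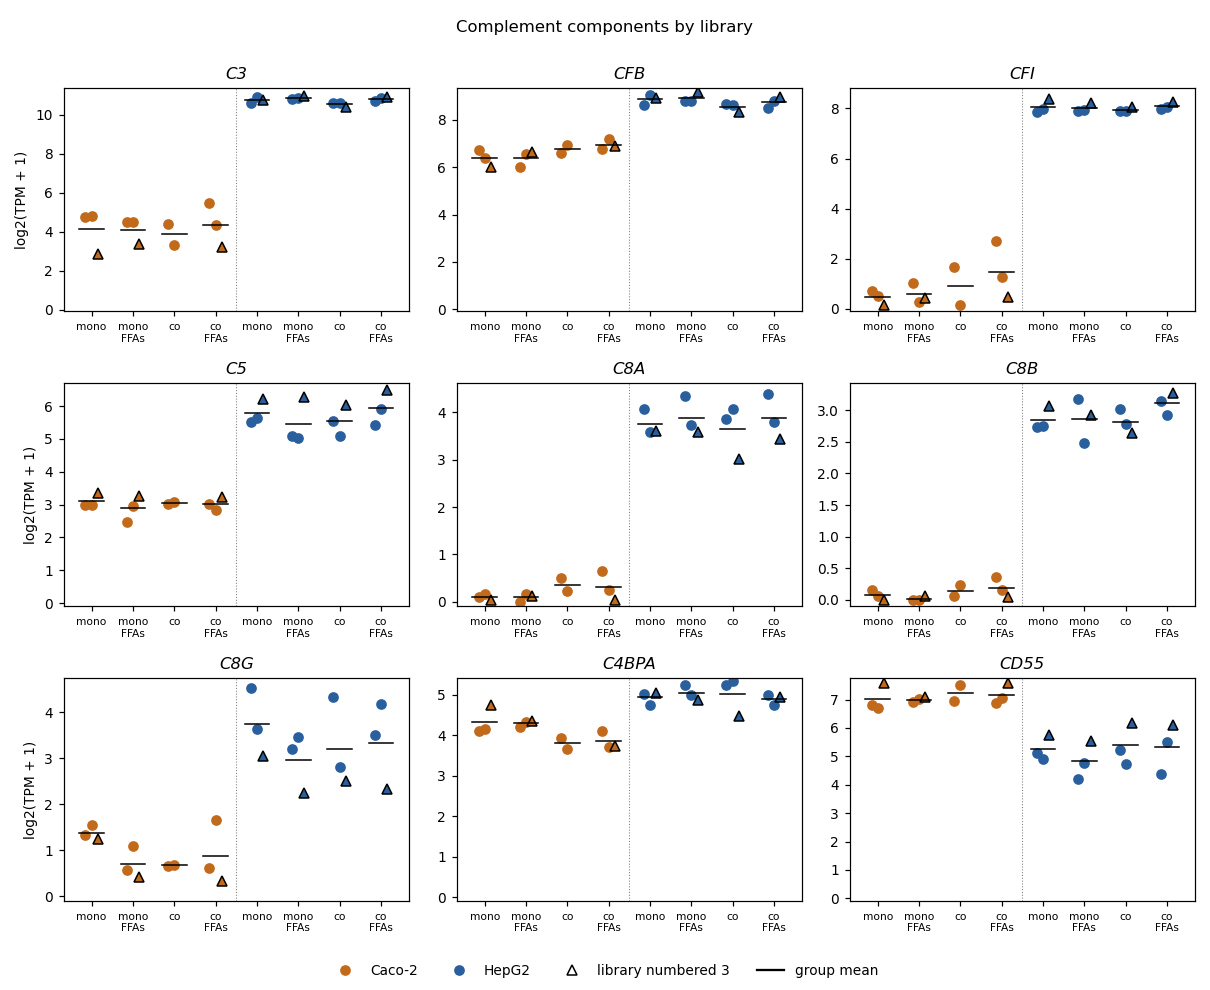
Level of each complement component in every library, as log2(TPM + 1), by group (mono, mono-culture; co, co-culture) in Caco-2 (orange) and HepG2 (blue). Horizontal lines are group means and triangles are libraries numbered 3. All HepG2 points lie above the Caco-2 points for 7 members and below them for CD55.

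**Figure D2:**
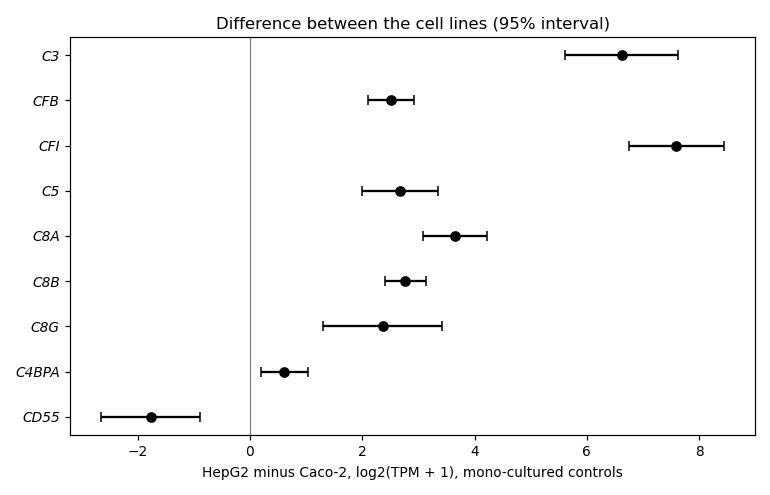
Difference between HepG2 and Caco-2 mono-cultured controls on the log2(TPM + 1) scale (points) with its 95% interval (bars), from limma. CFI has the highest difference (7.60), and CD55 alone is below 0 (-1.77).

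C3, the central component, was the most abundant member in HepG2. In mono-cultured controls C3 was at 25.7, 26.8 and 6.21 TPM in Caco-2 and at 1522, 1921 and 1746 TPM in HepG2. With FFAs in mono-culture it was at 21.4, 21.2 and 9.17 TPM in Caco-2 and at 1779, 1865 and 1963 TPM in HepG2. In HepG2, C3 alone made up 63.3% to 69.7% of the summed TPM of the 9 members, against 2.09% to 14.4% in Caco-2. In co-cultured controls C3 was at 20.05 and 9.07 TPM in Caco-2 and at 1539, 1551 and 1346 TPM in HepG2. In co-cultures with FFAs it was at 42.7, 19.1 and 8.38 TPM in Caco-2 and at 1683, 1856 and 1900.1 TPM in HepG2. The HepG2 libraries stood close together, whereas C3 varied widely within each Caco-2 group. The mean in mono-cultured controls was 88.4 times higher in HepG2 (1729.8 ± 199.97 TPM against 19.6 ± 11.6 TPM, SD, n = 3 each), with a log2 difference of 6.62 ± 0.48 (SE, limma, adjusted p = 4.31e-10).

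CFB, the protease of the alternative pathway convertase, was well expressed in both lines and followed CD55 in level in 10 of 11 Caco-2 libraries. In mono-cultured controls CFB was at 105, 82.7 and 62.9 TPM in Caco-2 and at 401, 529.6 and 493 TPM in HepG2. With FFAs in mono-culture it was at 63.1, 92.7 and 99.9 TPM in Caco-2 and at 442, 451 and 578 TPM in HepG2. CFB was thus higher in every HepG2 library, by 5.69 times on average in mono-cultured controls (log2 difference 2.51 ± 0.20, SE, limma, adjusted p = 1.28e-09). In co-cultured controls CFB was at 97.1 and 124 TPM in Caco-2 and at 402, 390.4 and 325 TPM in HepG2. In co-cultures with FFAs it was at 109, 145 and 119 TPM in Caco-2 and at 362, 442 and 505 TPM in HepG2. The ratio of the means of the lines was lower in co-culture, 3.37 in controls and 3.51 with FFAs.

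C5, which is cleaved into the inflammatory fragment C5a and into C5b, was at a moderate level in HepG2. In mono-cultured controls C5 was at 7, 6.96 and 9.24 TPM in Caco-2 and at 44.4, 48.8 and 73.1 TPM in HepG2, a log2 difference of 2.67 ± 0.32 (SE, limma, adjusted p = 6.35e-07). Across all libraries C5 ranged from 4.57 to 9.24 TPM in Caco-2 and from 31.6 to 89.3 TPM in HepG2. C8A and C8B, chains of the membrane attack complex, were near 0 in Caco-2. C8A was at 0 to 0.57 TPM in Caco-2, listed at 0 in 1 of 11 libraries, and at 7.10 to 20.1 TPM in HepG2. C8B was at 0 to 0.28 TPM in Caco-2, listed at 0 in 3 of 11 libraries, and at 4.61 to 8.60 TPM in HepG2. Both therefore fell under the filter of a group mean of 1 TPM within Caco-2 and were tested there in no comparison, and they passed it between the lines through HepG2 alone. C8G, the small lipocalin-like chain, was at 0.26 to 2.17 TPM in Caco-2 and at 3.76 to 22.2 TPM in HepG2, the widest spread of the C8 chains in HepG2. Between the lines the log2 difference was 3.65 ± 0.27 for C8A, 2.77 ± 0.17 for C8B and 2.36 ± 0.50 for C8G (SE), and all 3 passed the threshold. For C8A and C8B the direction was largely set by the filter, so their differences are given as descriptions.

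Among the regulators, CFI differed most between the lines. In mono-cultured controls CFI was at 0.65, 0.44 and 0.13 TPM in Caco-2 and at 228, 251 and 335 TPM in HepG2. This was a log2 difference of 7.60 ± 0.40 (SE, limma, adjusted p = 3.74e-12), the largest among the members. In the other HepG2 groups CFI was at 235, 243 and 298 TPM (mono-cultured FFAs), 236, 238 and 265 TPM (co-cultured control) and 250.5, 268 and 307 TPM (co-cultured FFAs). The 4 HepG2 groups of CFI thus overlapped. In Caco-2 it was at 1.04, 0.23 and 0.34 TPM with FFAs in mono-culture, 2.18 and 0.13 TPM in co-cultured controls, and 5.60, 1.41 and 0.38 TPM in co-cultures with FFAs. The highest Caco-2 values were therefore in both co-cultured groups, each in the library numbered 1.

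C4BPA, the chain of C4b-binding protein that binds C4b, differed least. In mono-cultured controls C4BPA was at 16.2, 16.7 and 25.7 TPM in Caco-2 and at 31.5, 26.1 and 32.3 TPM in HepG2. The log2 difference was 0.61 ± 0.20 (SE, limma, adjusted p = 0.0126). It no longer passed when the Caco-2 mono-cultured control numbered 1 (adjusted p = 0.0641) or 2 (adjusted p = 0.0568) was left out. Over all conditions C4BPA was at 11.7 to 25.7 TPM in Caco-2 and 21.4 to 39.4 TPM in HepG2, and the ranges overlapped.

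CD55, the membrane regulator, was the only member with a lower level in HepG2. In mono-cultured controls CD55 was at 109.9, 103 and 192 TPM in Caco-2 and at 34.1, 28.8 and 53.2 TPM in HepG2. With FFAs in mono-culture it was at 119, 128 and 135 TPM in Caco-2 and at 17.2, 26 and 45.1 TPM in HepG2. In HepG2, CD55 made up 0.668% to 3.42% of the summed TPM of the members, and in Caco-2 38.9% to 64.5%. In co-cultured controls CD55 was at 122 and 182 TPM in Caco-2 and at 36.4, 25.8 and 72.1 TPM in HepG2. In co-cultures with FFAs it was at 116, 132 and 189 TPM in Caco-2 and at 19.6, 44.6 and 67.3 TPM in HepG2. The mean in mono-cultured controls was 3.49 times higher in Caco-2, and the log2 difference was -1.77 ± 0.42 (SE, limma, adjusted p = 0.00116).

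In Caco-2 the order of the members by level was CD55, CFB, C3, C4BPA and C5 from the top in 6 of 11 libraries, and CD55 was the highest in all but the co-cultured FFAs library numbered 2, where CFB was. In HepG2, C3, CFB and CFI headed the order in all 12 libraries. Below them C5, CD55 and C4BPA overlapped and changed places between libraries, as did the 3 C8 chains.

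The other complement genes gave the setting of these members. Of 44 further complement genes, 22 were tested between the lines and 15 were higher and 3 lower in HepG2. Among all genes tested 62.4% passed, 3857 higher and 6429 lower in HepG2. Only 14 of the 22 passed the filter within Caco-2. The rest passed it through HepG2 alone, so their direction was largely set by the filter and the count is given as a description. C2, the classical counterpart of CFB, was at 463 ± 62.2 TPM in HepG2 and 36.8 ± 9.13 TPM in Caco-2 mono-cultured controls (SD, n = 3). C4A and C4B, which are near-identical copies with uncertain assignment, were at 358 and 215 TPM in HepG2 and below 1 TPM on average in Caco-2. The 3 genes lower in HepG2 were C1R and C1S, the proteases of the C1 complex, and VTN, which blocks membrane insertion of the attack complex. VTN was at 1015 to 1784 TPM in Caco-2 and at 240.0 to 369 TPM in HepG2 over all conditions. The membrane regulators CD46 and CD59 passed no threshold, with mean levels of 175 and 113 TPM in Caco-2 and 163 and 124 TPM in HepG2 controls. CD55 was therefore the membrane regulator with a called difference, whereas CR1 was listed at 0 throughout. C1QA, C1QB and C1QC were listed at 0 throughout as well, and C9 was at most at 0.35 TPM in Caco-2 and 0.03 TPM in HepG2.

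The next comparison asks how FFAs affected the members. No member passed the threshold with FFAs in either line or culture. In Caco-2, where 7 members were tested, limma called 0 members with FFAs in mono-culture (0% of 15081 genes), 0 in co-culture (0.0199%, 3 genes) and 0 in the average of both (0%). Before adjustment, 0 members in each and 393, 427 and 601 of all genes were under 0.05. In HepG2, 0 of 9 members were called in mono-culture, co-culture or the average of both (0% of 14255 genes each), and 0, 1 and 1 members and 319, 263 and 497 of all genes were under 0.05 before adjustment.

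C3 in HepG2 was that member. In co-cultured HepG2 the C3 means were 1479 ± 115 TPM in controls and 1813 ± 115 TPM with FFAs (SD, n = 3 each). The log2 difference was 0.30 ± 0.10 (SE, 95% interval 0.07 to 0.52, limma adjusted p = 1). In mono-culture the C3 levels of both treatments overlapped, and the log2 difference was 0.12 (95% interval -0.11 to 0.35). Averaged over both cultures it was 0.21 ± 0.07 (SE, 95% interval 0.04 to 0.37, limma adjusted p = 1), so the result failed the correction over all genes. For the other HepG2 members the averaged difference lay between -0.32 for C8G and 0.18 for C8A. The intervals were narrow for CFI (-0.18 to 0.28) and CFB (-0.11 to 0.37) and wide for C8G (-1.21 to 0.57) and CD55 (-0.996 to 0.492). In Caco-2, 5 members passed the filter of 1 TPM in every group, and their averaged difference lay between -0.12 for C5 and 0.22 for C3, with intervals of -0.80 to 1.24 for C3 and -0.29 to 0.31 for C4BPA. C8G passed that filter through the mono-cultured controls alone (mean 1.61 TPM, against 0.595 to 0.987 TPM in the other groups) and CFI through the co-cultured groups alone (means 1.16 and 2.46 TPM, against 0.407 and 0.537 TPM). Their differences, -0.24 and 0.34, are therefore given as descriptions. The effect of FFAs did not differ detectably between co-culture and mono-culture, with 0 members called and 0% of all genes in Caco-2 and in HepG2 (292 and 166 genes under 0.05 before adjustment, none of them a member). Nor did it differ between the lines, with 0 members called against 0.0182% of all genes.

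The other comparison asks how co-culture with the partner line affected the members. Again no member passed the threshold. In Caco-2, 0 of 7 members were called without FFAs (0.0199% of all genes), with FFAs (0%) or in the average of both treatments (0%), and 1, 2 and 2 members were under 0.05 before adjustment. In HepG2, 0 of 9 members were called without FFAs (0%), with FFAs (0%) or in the average (0.0561%), and 1, 0 and 1 members were under 0.05 before adjustment. Over all genes 819, 919 and 1578 in Caco-2 and 1073, 803 and 1789 in HepG2 were under 0.05 before adjustment.

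The members concerned were CFB and C4BPA in Caco-2 and CFB in HepG2. In Caco-2, CFB means were 83.5 ± 21.0 and 85.2 ± 19.5 TPM in mono-culture and 110.4 ± 18.7 (n = 2) and 124 ± 19.0 TPM in co-culture, without and with FFAs (SD, n = 3 elsewhere). The averaged log2 difference was 0.49 ± 0.16 (SE, 95% interval 0.14 to 0.83, limma adjusted p = 0.346). In HepG2, CFB means were 474 ± 66.2 and 490.0 ± 75.9 TPM in mono-culture and 372 ± 41.4 and 436 ± 71.4 TPM in co-culture, without and with FFAs (SD, n = 3 each). There the averaged log2 difference was -0.26 ± 0.11 (SE, 95% interval -0.50 to -0.02, limma adjusted p = 0.366). CFB values therefore lay in opposite directions in the lines, by -0.75 ± 0.20 for HepG2 minus Caco-2 (SE, 95% interval -1.17 to -0.32, limma adjusted p = 0.102). This difference did not pass the threshold either, and 0 of 9 members did, against 0.533% of all genes (88 genes, and 33 to 246 when 1 library was left out).

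C4BPA in Caco-2 was at 16.2 to 25.7 TPM in mono-culture and at 11.7 to 16.3 TPM in co-culture. Only the co-cultured FFAs library numbered 1 reached the mono-cultured range. The averaged log2 difference was -0.49 ± 0.14 (SE, 95% interval -0.79 to -0.19, limma adjusted p = 0.308). C4BPA in HepG2 had a difference of -0.03 (95% interval -0.35 to 0.29). In Caco-2, C3, C5 and CD55 had averaged differences between -0.02 for C3 and 0.18 for CD55. C8G and CFI, which passed the filter through mono-cultured controls and co-cultured groups alone, were at -0.27 and 0.67, and the CFI value ranged from 0.30 to 1.05 when 1 library was left out. In HepG2 the other members lay between -0.13 for C3 and 0.31 for CD55.

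**Figure D3:**
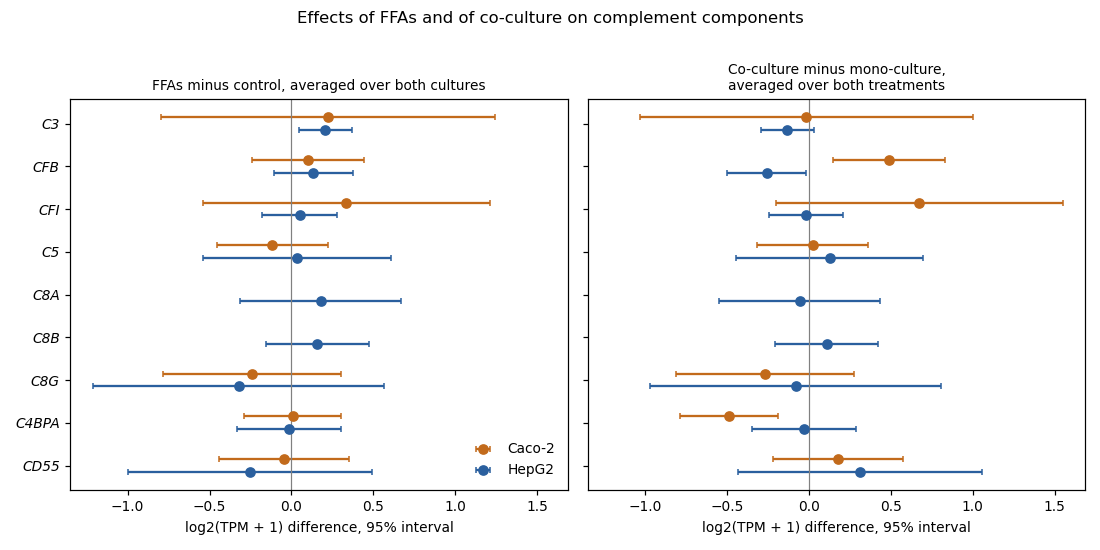
Effect of FFAs (left) and of co-culture (right) on each member, as the log2(TPM + 1) difference (points) with its 95% interval (bars) from limma, in Caco-2 (orange, 7 members tested) and HepG2 (blue). CFB lies at 0.49 in Caco-2 and at -0.26 in HepG2 with co-culture, and no member passed the threshold after adjustment.

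The higher CFI and C3 values of single co-cultured Caco-2 libraries were set beside transcripts typical of HepG2. The marker level was the summed TPM of 31 genes of at least 50 TPM in HepG2 and at most 1 TPM in Caco-2 mono-cultured controls, complement genes left out, as a percentage of the HepG2 mono-cultured controls. It was 0.0952% to 0.168% in the mono-cultured Caco-2 libraries. In co-cultured controls it was 0.833% and 0.0886%, and in co-cultures with FFAs it was 2.05%, 0.223% and 0.101%. The libraries with the highest marker level, both numbered 1, also had the highest CFI, at 2.18 and 5.60 TPM, and one of them had the highest C3, at 42.7 TPM. The excess of the marker level over the mean of the mono-cultured Caco-2 libraries was 1.92% in the co-cultured FFAs library numbered 1, 0.705% in the co-cultured control numbered 1 and 0.0953% in the co-cultured FFAs library numbered 2, and the other co-cultured libraries had none. That share of the mean level of co-cultured HepG2 amounts to 5.01 of the 5.60 TPM of CFI, 31.6 of the 42.7 TPM of C3 and 7.77 of the 109 TPM of CFB in the first of these libraries. In the second it amounts to 1.84 of 2.18 TPM of CFI and 11.6 of 20.05 TPM of C3. That C3 value was not raised, as it lay within the mono-cultured Caco-2 range of 6.21 to 26.8 TPM. In the third it amounts to 0.248 of 1.41 TPM of CFI, and the remaining 1.16 TPM lay above all mono-cultured Caco-2 values of CFI, which reached 1.04 TPM. Whether RNA of HepG2 was present in these libraries, and its part in the CFI and C3 values, was not tested.

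**Figure D4:**
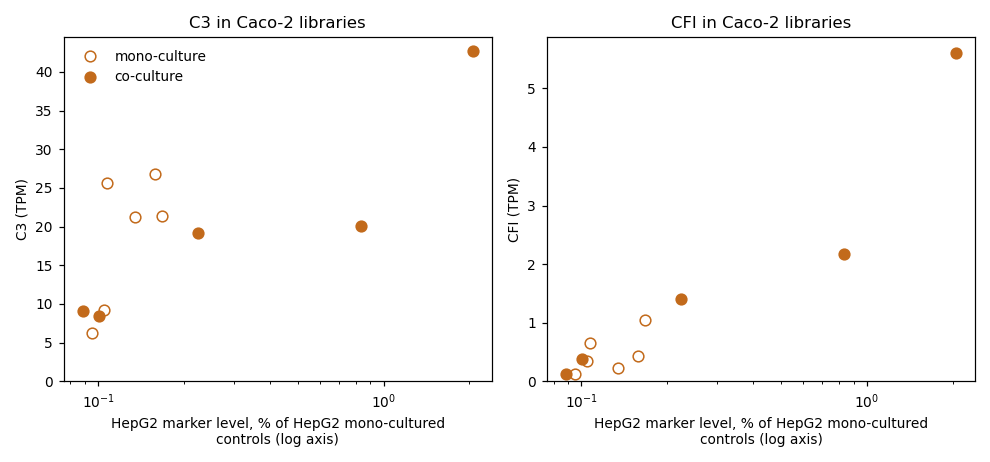
Levels of C3 (left) and CFI (right) in the 11 Caco-2 libraries in TPM, against the HepG2 marker level as a percentage of HepG2 mono-cultured controls on a log axis. Open points are mono-culture and filled points co-culture. The co-cultured FFAs library numbered 1 has the highest marker level (2.05%), C3 (42.7 TPM) and CFI (5.60 TPM).

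Libraries numbered 3 stood apart from those numbered 1 and 2 for several members, a comparison chosen after seeing the data. The labels do not say what a number stands for. In HepG2, C5 was at 64.2 to 89.3 TPM in the 4 libraries numbered 3 and at 31.6 to 58.9 TPM in the other 8. CD55 was at 45.1 to 72.1 TPM in those numbered 3 and at 17.2 to 44.6 TPM in the others. Tested with the groups held constant, 5 of 9 members were called in HepG2, 3 higher and 2 lower, against 21.8% of all genes. C5 was higher by 0.85 ± 0.12 on the log2 scale (SE, limma adjusted p = 0.000923), CD55 by 1.04 ± 0.20 (adjusted p = 0.00387) and CFI by 0.30 ± 0.06 (adjusted p = 0.00576). C8G differed by -1.17 ± 0.27 (adjusted p = 0.0102) and C8A by -0.57 ± 0.17 (adjusted p = 0.034). The C8A call was lost without any 1 of 8 libraries (adjusted p = 0.0521 to 0.136), with no filter (adjusted p = 0.0901) and with median-of-ratios scaling (adjusted p = 0.0589), and the C8G call without the co-cultured FFAs library numbered 3 (adjusted p = 0.0551). C3 in HepG2 differed by 0.01 (95% interval -0.15 to 0.17).

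In Caco-2, 1 of 7 members was called in the same comparison, against 2.13% of all genes. That share stands for 321 genes, and 1 to 35 were called without any 1 of the mono-cultured controls, the mono-cultured FFAs library numbered 3 or the co-cultured FFAs library numbered 3. The co-cultured control numbered 2, counted among the others, deviated from its group mean together with the libraries numbered 3 (r = 0.18 to 0.284 across genes). Its group has 2 libraries, so the control numbered 1 deviated by the same amounts in the opposite direction. C3 was at 6.21 to 9.17 TPM in the 3 libraries numbered 3 and at 9.07 to 42.7 TPM in the other 8, a log2 difference of -1.57 ± 0.27 (SE, limma adjusted p = 0.0257). The call was lost when any of 5 libraries was left out, namely a mono-cultured control of any number or a library numbered 3 of either FFAs group (adjusted p = 0.0585 to 0.173). The value of 9.07 TPM among the others was that of the co-cultured control numbered 2. C5 was higher in the libraries numbered 3 in Caco-2 as well, at 8.29 to 9.24 TPM against 4.57 to 7.36 TPM, with an adjusted p of 0.141. CD55 differed by 0.52 ± 0.14 (SE, adjusted p = 0.0824). The averaged effects of FFAs and of co-culture on C5 and CD55 were at most 0.31 on the log2 scale in either line.

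**Figure D5:**
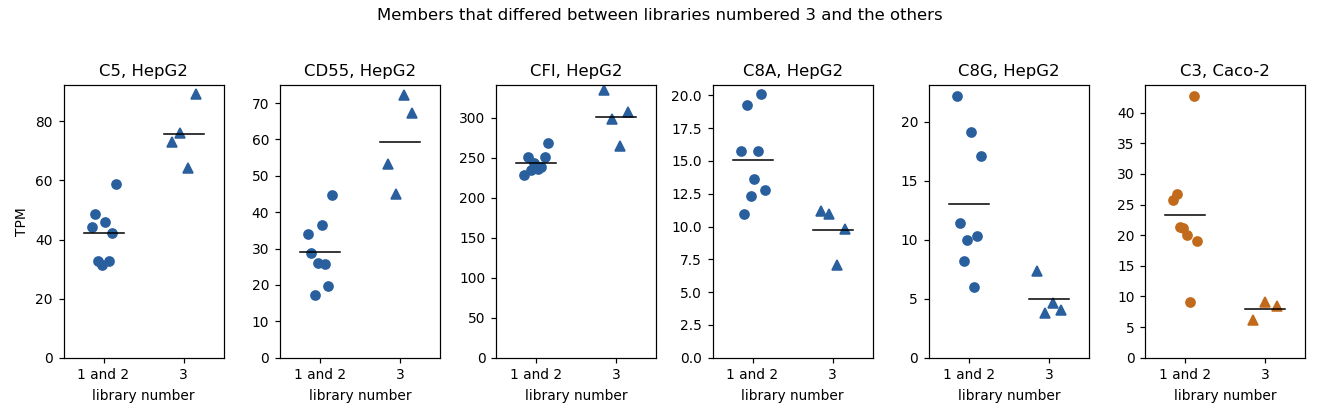
TPM of the 6 member and line pairs that passed the threshold between libraries numbered 3 (triangles) and those numbered 1 and 2 (circles), with means as lines. In HepG2 the means of C5, CD55 and CFI are higher and those of C8A and C8G lower in the libraries numbered 3.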

How the data were processed

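Polyadenylated RNA of Caco-2 and HepG2 cells was amplified with SMART-Seq v4 per the labels. For that kit the methods of the study give sequencing by Takara Bio on a NovaSeq 6000. The deposited files hold 1 TPM value per gene identifier and library (60564 identifiers), made by the authors with RSEM, and the submitters' processing notes name STAR 2.7.1a, Bowtie2 2.1.0, RSEM 1.3.0 and GRCh38. TPM are scaled to the same total in each library and keep no depth, so counting intervals could not be given. Groups and library numbers came from the labels. The study describes its replicates as biological, from at least 2 independent experiments, but the labels do not say which libraries share an experiment or culture, so p-values measure the spread between these libraries.

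Members were matched by symbol. A gene was tested where the mean of any group reached 1 TPM, with limma 3.58.1 in R 4.3.3 (cell means, eBayes with trend) on log2(TPM + 1), which understates changes of low genes. Each line was fitted on its own and the line comparison over all 23 libraries. P-values were adjusted by Benjamini-Hochberg over all genes tested, with a threshold of 0.05, and no count test was run. The fit was tested on simulated data. With 200 changed genes it recovered 75% of log2 changes of 1 and 98% of those of 2 in Caco-2 (14909 genes), 62% and 93% in HepG2 (14080 genes, both mono-culture FFAs comparisons), and 76.3% and 92.9% between the lines (15175 genes), and it called 14, 13 and 9 unchanged genes. The simulated libraries varied independently around a common mean per gene, for the line comparison that of Caco-2. Other line differences and deviations shared by same-numbered libraries were thus absent, and recovery in their presence was not tested.

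All 9 members are named. Of the 44 other complement genes, those past the threshold or among the 2 highest of their role may be named. For likeness, the 3 genes with the highest r per member and line were taken. The members and lists were chosen with earlier results of these data known. Alternatives were a pseudocount of 0.1, no filter, median-of-ratios scaling of the TPM, no trend, a replicate block and leaving out each library. Marker subtraction was an alternative too. The tests of differences between the lines, the comparison of libraries numbered 3, the fits without them and the marker list of genes near 0 in Caco-2 were added after seeing the data. Promoters were from RefSeq, and Python 3.11.15 was used for tables.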

Additional observations from a re-analysis of the deposited data

How the results depend on the processing

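The line differences of all 9 members kept their direction under every alternative and all 9 passed under each of them, except C4BPA without the mono-cultured Caco-2 control numbered 1 or 2. The number of members called with FFAs or co-culture stayed at 0 in both lines under every alternative run. The count of members called for libraries numbered 3 fell from 1 to 0 in Caco-2 with no filter and to 0 with no trend, and leaving out 1 library gave 0 to 1 in Caco-2 and 3 to 5 in HepG2, with 3 without the co-cultured FFAs library numbered 3.

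Directions turned for differences that had not passed, among them the Caco-2 FFAs differences of CFI (0.34) and C3 (0.22). With scaling, the FFAs difference of C4BPA in Caco-2 was -0.012, and the co-culture difference was -0.0043 for C5 in Caco-2 and 0.011 for CFI in HepG2. Without the libraries numbered 3, the FFAs difference was -0.042 for CFB in Caco-2, and -0.083 for C5 and -0.016 for CFB in HepG2, and the HepG2 co-culture difference was 0.10 for C8A, 0.050 for CFI and 0.075 for C4BPA. When 1 library was left out, the averaged FFAs difference in Caco-2 ranged from -0.097 to 0.50 for C3, -0.038 to 0.71 for CFI, -0.059 to 0.11 for C4BPA and -0.19 to 0.096 for CD55. In HepG2 it ranged from -0.17 to 0.16 for C5, -0.0077 to 0.13 for CFI and -0.15 to 0.063 for C4BPA. The averaged co-culture difference ranged from -0.33 to 0.26 for C3 and -0.084 to 0.12 for C5 in Caco-2. In HepG2 it ranged from -0.012 to 0.33 for C5, -0.19 to 0.10 for C8A, -0.36 to 0.17 for C8G, -0.074 to 0.064 for CFI and -0.11 to 0.10 for C4BPA. Between libraries numbered 3 and the others the range was -0.32 to 0.15 for CFB and -0.052 to 0.35 for C4BPA in Caco-2, and -0.024 to 0.081 for C3 and -0.32 to 0.00077 for C4BPA in HepG2. The cause was not tested.

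Same-numbered libraries of different groups deviated together with r from -0.0926 to 0.312 in Caco-2 and from 0.0284 to 0.601 in HepG2 (medians 0.088 and 0.304, against -0.118 and -0.226 for libraries of different numbers). Since r was not above 0.1 for every pair and the labels give the number no meaning, the numbers were not taken as pairs. A replicate block changed no call of a member, and with the block the FFAs difference of C4BPA in Caco-2 was -0.022. The block moved the calls over all genes for co-culture averaged over both treatments from 0 to 60 in Caco-2 and from 8 to 492 in HepG2, and for the difference of that effect between the lines from 88 to 344.

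Counts over all genes were low and moved with other settings too. In Caco-2 the co-cultured FFAs count of 3 and the co-culture count of 3 became 0 with a pseudocount of 0.1, 11 with no filter and 5 with no trend. The other Caco-2 counts of 0 became 2 to 10 with no filter and 2 to 8 with no trend, and the HepG2 co-culture count of 8 became 1 and 4. When 1 library was left out, the HepG2 co-culture count of 8 ranged from 0 (mono-cultured control 1) to 15 (co-cultured FFAs 3), and the Caco-2 counts of 3 reached 24 (co-cultured control 2). The between-line count of 88 for co-culture ranged from 33 (HepG2 mono-cultured control 2) to 246 (HepG2 mono-cultured control 3). Without the libraries numbered 3, the between-line difference of the co-culture effect gave 328 genes in place of 88. Without the filter and without the trend, the Caco-2 count for libraries numbered 3 was 17 and 7 in place of 321, and it was 1 without the mono-cultured control numbered 3. The HepG2 count of 3106 fell to 1710 and 1741 without the mono-cultured and the co-cultured FFAs library numbered 3. With scaling the share of higher calls went from 40.6% to 50.4% in HepG2 and from 50.5% to 39.5% in Caco-2 in that comparison. The planned subtraction by liver markers, which Caco-2 expresses itself, gave a mean of 2.19 TPM for C3 and -0.86 TPM for CFI in co-cultured Caco-2, in place of 19.9 and 1.94 TPM, and subtraction by genes near 0 in Caco-2 gave 10.9 and 0.521 TPM.

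The number of libraries limits these comparisons, since groups held 2 or 3, and with TPM alone the depth behind low values such as C8A, C8B and CFI in Caco-2 is unknown.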

Other observations

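Further complement genes differed with the library number in HepG2. MASP2, the protease of the lectin pathway, differed by -1.90 on the log2 scale in libraries numbered 3 (limma adjusted p = 9.17e-07), and SERPING1, the C1 inhibitor, by 2.00 (adjusted p = 3.81e-05). Of the 22 other complement genes tested in HepG2, 8 were higher and 3 lower in those libraries. Among all genes tested in HepG2 21.8% were called, 1262 higher and 1844 lower. C4A and C4B, near-identical copies of the C3 relative C4, were higher by 0.37 and 0.39 (adjusted p = 0.00683 and 0.0062). In Caco-2, 0 of 14 were called by limma, against 2.13% of all genes, with 3 under the same threshold before adjustment.

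CLU, a fluid-phase regulator of the attack complex, had the lowest adjusted p among the other complement genes for the difference of the co-culture effect between the lines, at -0.43 for HepG2 minus Caco-2 (limma adjusted p = 0.0809), which did not pass. It was at 2613 TPM in HepG2 and 665 TPM in Caco-2 mono-cultured controls on average.

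The genes with the level pattern most like that of a member were found over the libraries of a line on log2(TPM + 1), and the values share libraries and groups. Over 12 HepG2 libraries, CFB was the second gene for C3 (r = 0.871) after LRP4 (r = 0.911), among 14254 genes. C4B was the third gene for C5 (r = 0.946), and PROS1, which encodes protein S, the first for CFI (r = 0.936). For CD55 the first was TSEN15 (r = 0.976). In HepG2, C5, CFI, CD55 and C4B were called between libraries numbered 3 and the others, as were 21.8% of all genes. The part of that difference in the likeness was not tested. Over 11 Caco-2 libraries, SERPINA7 (r = 0.972) and C4A (r = 0.963) were the first for CFI. Both CFI and C4A were highest in the co-cultured FFAs library numbered 1 (5.60 and 8.87 TPM), which had the highest HepG2 marker level (2.05%), and the part of that level in the likeness was not tested. MTTP (r = 0.963), which loads lipoproteins with lipid, was the second for C3. C3 was lower in the Caco-2 libraries numbered 3, and the part of that difference in the likeness was not tested. PLA2G12B (r = 0.982) and SI, the brush border sucrase-isomaltase (r = 0.956), were among the first 3 for CFB. SI was at 4.23 to 9.81 TPM in mono-cultured and 9.33 to 16.6 TPM in co-cultured Caco-2. CFB was at 62.9 to 105 TPM and 97.1 to 145 TPM there, and the part of culture in the likeness was not tested.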
